A study of Mus musculus with 12 samples.

Results

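The imprinted growth regulators are genes that are expressed mainly from 1 parental copy and that set the growth of the fetus and of its organs. The 10 genes taken here are Igf2, H19, Dlk1, Meg3, Peg3, Mest, Cdkn1c, Grb10, Igf2r and Plagl1. Each was looked up by its symbol in the annotation of the array, and where a symbol had several probe sets the one with the highest mean was to be taken. Probe sets were found for 8 of the 10, with 1 probe set each, among the 19505 gene symbols of the array. H19 and Meg3, both long noncoding RNAs, were not matched to a probe set with a single symbol and are not analysed here. Probe sets annotated to several symbols were left unmatched. The measurements are log2 signals of liver RNA from 12 adult male C57BL/6J mice, 1 expression array per mouse. Arrays 1 to 6 were of mice born to wild-type (WT) mothers and arrays 7 to 12 of mice born to UCP1-KO mothers, which lack the uncoupling protein that lets brown fat release heat. Both kinds of dam were bred with heterozygous sires, and all 12 offspring are labelled heterozygous. The mice were 4 to 5 months old, were housed at 23 °C and ate standard chow. By its title, the series concerns heat production in the brown fat of the dam and the glucose tolerance of male offspring.

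By this breeding the Ucp1-deficient copy came from the father in one group and from the mother in the other, which cannot be told apart from the genotype of the dam. The labels do not say which mice were littermates, so p-values reflect the spread among the mice sampled. The array reads the RNA of both parental copies together and gives no allele-specific value. In whole liver, fewer cells of a type and less RNA per cell cannot be told apart.

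Imprinting is laid down in the germ line as DNA methylation at control regions and is kept in the body's cells, so that the copy from the mother or from the father stays silent. Igf2, Dlk1, Peg3, Mest and Plagl1 are mainly expressed from the father's copy, whereas H19, Meg3, Cdkn1c, Igf2r and, outside the brain, Grb10 are mainly expressed from the mother's copy. Several of them are high in fetal liver and are switched off in the weeks after birth, so low signals are usual in an adult mouse liver.

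The promoters of these genes differ in their content of CpG, the dinucleotide that carries the methylation. The RefSeq table of start sites (GRCm38.p6) held 15 windows of 250 bases before an annotated start for 8 of the 10 genes. The median over all 32851 windows of that table was 6 CpG. The window of Igf2r, the member with the clearest signal, held 27 CpG, more than most windows (percentile 91.9). Igf2 had 4 windows with 1 to 22 CpG, and its poorest and richest are shown beside that of Igf2r, since its 1 probe set is annotated to several transcripts. The 3 sequences are on the minus strand, written 5′ to 3′ up to the base before the start, with each CpG in capitals. They lie at chr17:12769707-12769956, chr7:142666817-142667066 and chr7:142658805-142659054.
Igf2r: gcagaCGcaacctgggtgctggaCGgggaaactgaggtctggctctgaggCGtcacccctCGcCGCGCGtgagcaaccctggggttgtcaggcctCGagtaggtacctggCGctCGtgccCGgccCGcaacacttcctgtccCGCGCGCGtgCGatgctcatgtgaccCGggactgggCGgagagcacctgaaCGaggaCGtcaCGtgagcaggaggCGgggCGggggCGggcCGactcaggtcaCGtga
Igf2 with 1 CpG: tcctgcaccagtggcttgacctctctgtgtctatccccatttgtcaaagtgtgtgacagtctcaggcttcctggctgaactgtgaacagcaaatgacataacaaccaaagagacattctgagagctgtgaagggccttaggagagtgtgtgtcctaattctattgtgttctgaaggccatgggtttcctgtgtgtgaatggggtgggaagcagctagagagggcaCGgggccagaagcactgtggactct
Igf2 with 22 CpG: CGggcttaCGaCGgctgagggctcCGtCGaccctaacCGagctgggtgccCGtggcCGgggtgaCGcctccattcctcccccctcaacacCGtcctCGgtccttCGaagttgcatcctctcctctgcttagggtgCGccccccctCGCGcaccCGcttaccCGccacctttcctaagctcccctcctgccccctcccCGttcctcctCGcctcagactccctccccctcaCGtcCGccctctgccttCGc
The richest of the 15 windows was one of the 2 of Grb10, with 40 CpG (percentile 98.8), while the other held 8. Plagl1 had 19, each of the pair of overlapping Mest windows 14, the other Mest window 7, the 2 of Meg3 10 and 0, and Dlk1 and Peg3 8 each. The zinc finger protein PLAGL1, itself a member, binds the palindrome GGGGCCCC, which reads the same on both strands. This motif was searched in the same windows and was in 1 of the 15, that of Peg3, against 0.889% of all windows. The window of Peg3 lies at chr7:6730420-6730669 on the minus strand and is printed because it holds the match, which is in capitals.
Peg3: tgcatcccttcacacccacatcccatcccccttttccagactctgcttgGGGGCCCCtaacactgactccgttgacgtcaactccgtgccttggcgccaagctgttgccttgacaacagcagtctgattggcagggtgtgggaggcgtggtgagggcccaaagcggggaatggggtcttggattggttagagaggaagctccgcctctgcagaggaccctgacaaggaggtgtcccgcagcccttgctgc
These are descriptions of the reference sequence. Neither methylation nor binding was measured here.

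Which members were detected depends on what is taken as background. The array has 23 background control probe sets, numbered 3 to 25 in their names for the G and C bases of their probes, and 5222 negative controls. The mean of the background controls was 5.00 ± 0.03 (log2 signal, SD, n = 6) in the WT-dam group and 5.02 ± 0.01 (n = 6) in the UCP1-KO-dam group. Their means over the arrays were far from even, at 2.88 for the control numbered 15 and 7.00 for that numbered 25. Controls 9 to 18 lay between 2.88 and 4.08, and controls 19 to 25 between 6.25 and 7.00. Taking as detected a gene whose mean in each group exceeded that of the background controls, 5 of the 8 members were above background: Igf2, Igf2r, Grb10, Mest and Peg3. Dlk1, Cdkn1c and Plagl1 were not. By their means over the arrays, Igf2, Igf2r and Mest exceeded all 23 single background controls and Grb10 exceeded 12. Peg3 and Dlk1 exceeded 11 each, and Cdkn1c and Plagl1 10 each. The rule thus parts Peg3 from Dlk1, although both exceeded the same number of single controls. Against the median of the negative controls, 6.39 ± 0.21 and 6.21 ± 0.14 (SD, n = 6 each), 3 remained: Igf2, Mest and Igf2r. The median of all tested probe sets was near this level, at 6.215 in the WT-dam group and 6.244 in the UCP1-KO-dam group. A signal below the negative control median therefore does not by itself show a lack of expression. Against the highest background control of each array, 7.19 and 7.14 on average, Igf2 and Igf2r remained, and against the 95th percentile of the negative controls, 10.08 and 9.85, Igf2r alone. The first rule, by the mean of the background controls, was passed by most probe sets with 1 symbol: 13159 besides the member itself, out of 19572. Also 3 of 7 pancreatic and 4 of 7 muscle markers passed it. Passing this rule does not by itself show expression in liver.

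No member passed the test for a difference with the genotype of the dam: 0 of 8 were called in the limma fit across all 22206 probe sets (adjusted p = 0.185 to 0.990), where 8 probe sets, 0.036%, passed. At an unadjusted p under 0.05 there was 1 of 8 members, or 12.5%, against 13.1% of all probe sets. This was a higher signal in the UCP1-KO-dam group, as at 7.08% of all probe sets. The groups overlapped for each of the 8, and did not overlap at 1.05% of all probe sets. The differences, UCP1-KO-dam minus WT-dam offspring, ran from -0.21 to 0.67 log2 with a median of 0.06, and 6 of 8 lay above 0. Over all probe sets 56.8% lay above 0, with a median of 0.03. Of the 5 members above background the differences ran from -0.10 to 0.25. The plot of signals by array shows each mouse.

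**Figure D1:**
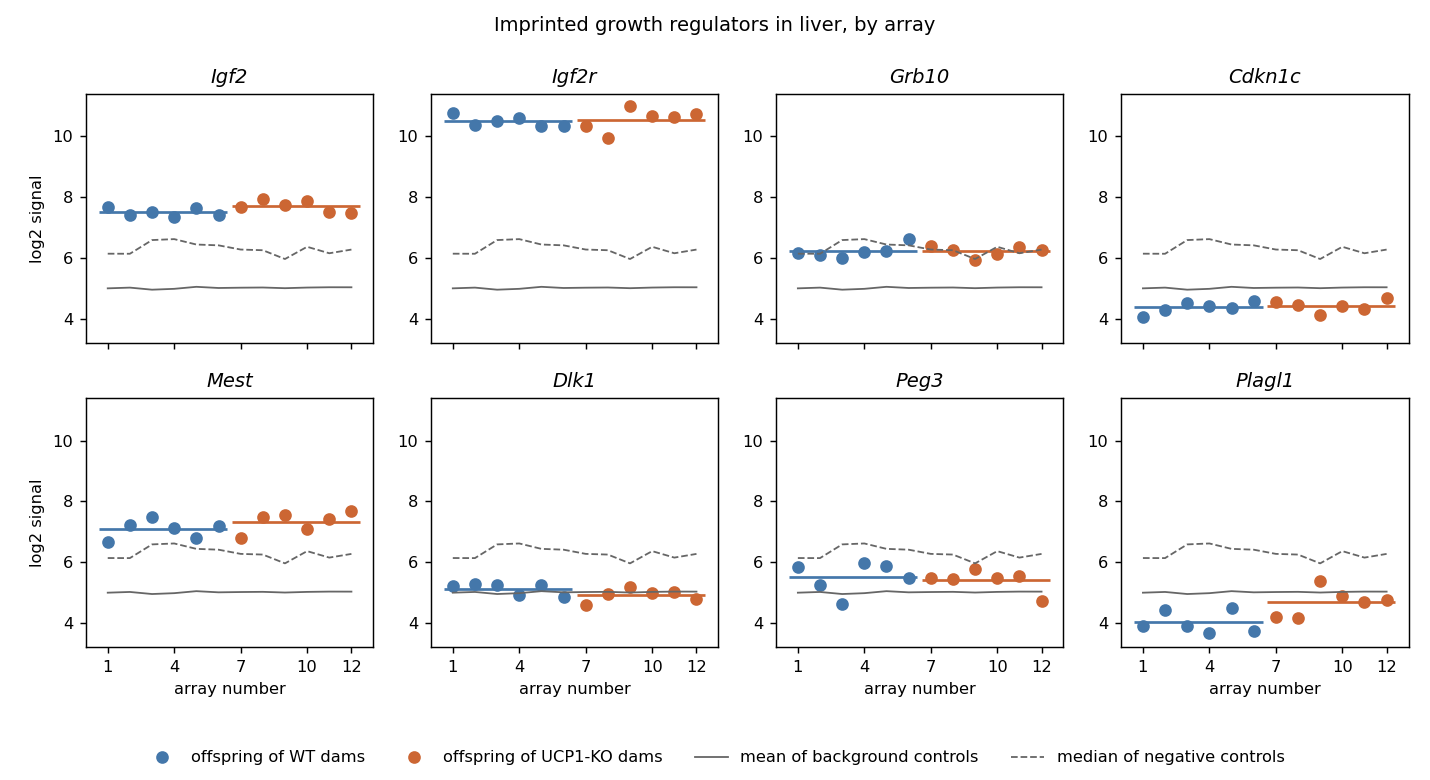
Log2 signal (y axis) of the 8 measured members on arrays 1 to 12 (x axis), with blue points for WT-dam offspring, orange points for UCP1-KO-dam offspring and a bar at each group mean (n = 6 each). The solid line is the mean of the background controls and the dashed line the median of the negative controls of the same array. Igf2r lies above both lines on all 12 arrays, and Cdkn1c below both on all 12.

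Igf2 (probe set TC0700004571.mm.2) encodes insulin-like growth factor 2, the fetal growth factor of the group. Its signal was lowest at 7.36, with a median of 7.45 and a highest value of 7.66, in WT-dam offspring, and 7.49, 7.70 and 7.93 in UCP1-KO-dam offspring. Arrays 7 to 10 of the second group lay above all arrays of the first, while arrays 11 and 12, at 7.50 and 7.49, lay within its range. The means were 7.49 ± 0.13 and 7.70 ± 0.18 (SD, n = 6 each), which differed by 0.21 log2 (95% interval -0.06 to 0.47, limma adjusted p = 0.499, exact two-sided permutation p = 0.0519). On the fold scale the interval ran from 0.962 to 1.38, so changes beyond these bounds lie outside it. Igf2 was above the mean of the background controls on 12 of 12 arrays, above the negative control median on 12 and above the highest background control on 11. When single arrays were left out the difference was 0.16 to 0.25. Without UCP1-KO-dam arrays 8, 10 and 11, an alternative added after seeing the data, it was 0.14 (limma adjusted p = 0.842). Arrays 8 and 10, at 7.93 and 7.87, held the highest values of this group, so leaving them out lowers its mean.

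Igf2r (TC1700001451.mm.2) encodes the mannose 6-phosphate receptor, which carries enzymes to lysosomes and takes up IGF2 for breakdown. It was the member with the clearest signal, above the 95th percentile of the negative controls on 12 of 12 arrays. The lowest, median and highest values were 10.33, 10.43 and 10.78 in WT-dam offspring and 9.94, 10.64 and 11.00 in UCP1-KO-dam offspring. Both the lowest (array 8) and the highest (array 9) of the 12 were in the second group, which spanned the whole range of the first. The means, 10.49 ± 0.18 and 10.55 ± 0.36 (SD, n = 6 each), differed by 0.06 log2 (95% interval -0.28 to 0.40, limma adjusted p = 0.916). The interval on the fold scale was 0.823 to 1.32. The sign of this small difference turned without array 9, to -0.03, and with the negative control median as a covariate, to -0.02.

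Grb10 (TC1100002227.mm.2) encodes an adaptor protein that binds the insulin and IGF1 receptors and dampens their signal. Its lowest, median and highest values were 5.99, 6.17 and 6.63 in WT-dam offspring and 5.92, 6.26 and 6.40 in UCP1-KO-dam offspring. The range of the second group lay almost within that of the first, and WT-dam array 6 was the highest of the 12. It was above the mean of the background controls on 12 of 12 arrays but above the negative control median on only 5. The means were 6.21 ± 0.22 and 6.22 ± 0.18 (SD, n = 6 each), which differed by 0.01 log2 (95% interval -0.28 to 0.29, limma adjusted p = 0.990). The sign of this value turned after quantile normalization and after centring of the arrays, to -0.02 in both.

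Cdkn1c (TC0700004585.mm.2) encodes p57, an inhibitor of cyclin-dependent kinases that holds back cell division. It was below the mean of the background controls on all 12 arrays, at 4.05 to 4.59 in WT-dam offspring and 4.12 to 4.67 in UCP1-KO-dam offspring. Its expression is therefore not shown in either group. Its difference of 0.05 (limma adjusted p = 0.909), which was -0.02 after quantile normalization, cannot be read as a change in transcript.

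Mest (TC0600000277.mm.2) encodes an alpha/beta hydrolase fold protein known for its link to fat cell size and fetal growth. Its lowest, median and highest values were 6.67, 7.17 and 7.48 in WT-dam offspring and 6.80, 7.45 and 7.67 in UCP1-KO-dam offspring. Arrays 9 and 12, at 7.56 and 7.67, lay above the WT-dam range, and array 7, at 6.80, near its lower end. The means were 7.09 ± 0.30 and 7.34 ± 0.33 (SD, n = 6 each), which differed by 0.25 log2 (95% interval -0.11 to 0.61, limma adjusted p = 0.557, exact permutation p = 0.201). Mest was above the negative control median on 12 of 12 arrays and above the highest background control on 8. On the fold scale the interval was 0.927 to 1.53, the highest upper bound among the members above background.

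Peg3 (TC0700002217.mm.2) encodes a large zinc finger protein that binds DNA and is known from growth and maternal behaviour. Its lowest, median and highest values were 4.62, 5.66 and 5.99 in WT-dam offspring and 4.74, 5.49 and 5.77 in UCP1-KO-dam offspring. Arrays 3 and 12, 1 in each group, lay below the mean of the background controls and the other 10 above it, but all 12 lay below the negative control median. The means were 5.51 ± 0.52 and 5.41 ± 0.35 (SD, n = 6 each), which differed by -0.10 log2 (95% interval -0.55 to 0.36, limma adjusted p = 0.892). Without array 12 the difference was 0.04. Dlk1 (TC1200001125.mm.2) encodes a membrane protein of the Delta family that keeps precursor cells from maturing into fat cells and marks fetal liver cells. It was at the level of the background controls, at 4.86 to 5.29 in WT-dam offspring and 4.60 to 5.18 in UCP1-KO-dam offspring, and above their mean on 5 of 12 arrays. The log2 difference of -0.21 (limma adjusted p = 0.518) thus cannot be read as a change in transcript.

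Plagl1 (TC1000000093.mm.2) encodes a zinc finger factor that arrests the cell cycle and acts on other imprinted genes. It was the 1 member with an unadjusted p under 0.05, and its signal lay below the mean of the background controls on 11 of 12 arrays. Its lowest, median and highest values were 3.67, 3.90 and 4.51 in WT-dam offspring and 4.18, 4.73 and 5.39 in UCP1-KO-dam offspring. Arrays 9 to 12 lay above the WT-dam range, and arrays 7 and 8, at 4.20 and 4.18, within it. Array 9 alone was above background, and it was also the array with the lowest negative control median, 5.96. The means, 4.02 ± 0.36 and 4.69 ± 0.46 (SD, n = 6 each), differed by 0.67 log2 (95% interval 0.23 to 1.10, limma unadjusted p = 0.00462, limma adjusted p = 0.185, exact permutation p = 0.0216). With the negative control median as a covariate the difference was 0.48 (limma unadjusted p = 0.0441, limma adjusted p = 0.436). A signal below the mean of the background controls does not show that Plagl1 was expressed in either group. Its mean over the arrays, 4.35, was above 10 of the 23 single background controls. Its probes were not matched to controls of like G and C content. Without such a match the difference cannot be read as a change in transcript or as the lack of one. The plot of differences sets the members side by side.

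**Figure D2:**
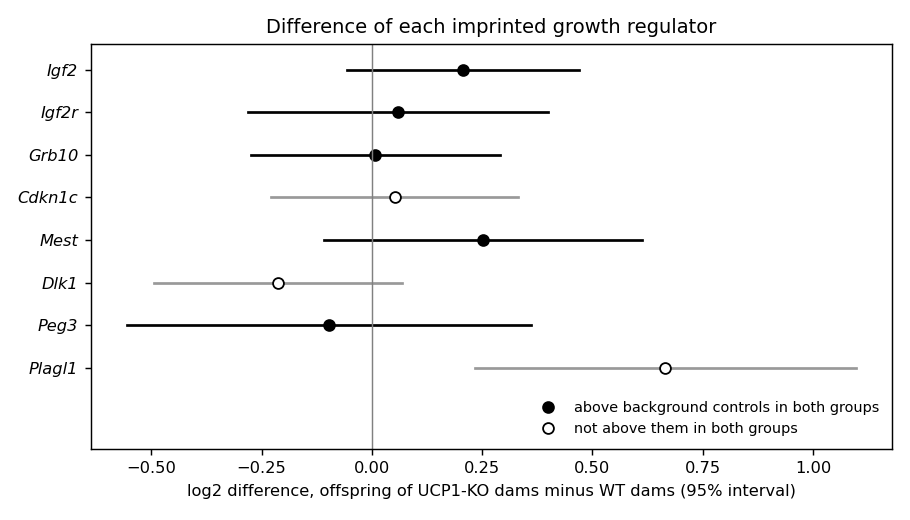
Log2 difference (x axis), UCP1-KO-dam minus WT-dam offspring, for the 8 measured members (y axis), with 95% intervals from limma (n = 6 each). Filled points are members above the background controls in both groups and open points are not. The interval of Plagl1, 0.23 to 1.10, is the only one that does not hold 0, and its signal lies below background.

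The values of Plagl1, Cdkn1c and Dlk1, the members not above background, are set here against the negative controls of the same array. Across the 12 arrays Plagl1 had a Pearson's r of -0.63 (permutation p = 0.0286) and a Spearman's rho of -0.52 (permutation p = 0.0831) with the negative control median, and r was -0.43 without the 2 arrays farthest from its median. Cdkn1c went the other way, with r = 0.58 (permutation p = 0.0478), rho = 0.55 (permutation p = 0.0716) and r = 0.67 without those 2 arrays. Dlk1 had r = -0.14 (permutation p = 0.661), rho = -0.23 (permutation p = 0.474) and r = -0.33 without them. Within the WT-dam and UCP1-KO-dam groups r was -0.43 and -0.59 for Plagl1, 0.73 and 0.80 for Cdkn1c and -0.45 and -0.62 for Dlk1. With adjustment over the 8 members tested none of the 3 passed (adjusted permutation p of r = 0.191 for Plagl1 and Cdkn1c and 0.688 for Dlk1, and of rho 0.332, 0.332 and 0.607). The part of the control signal in the difference of Plagl1 was not tested beyond the covariate value given above.

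**Figure D3:**
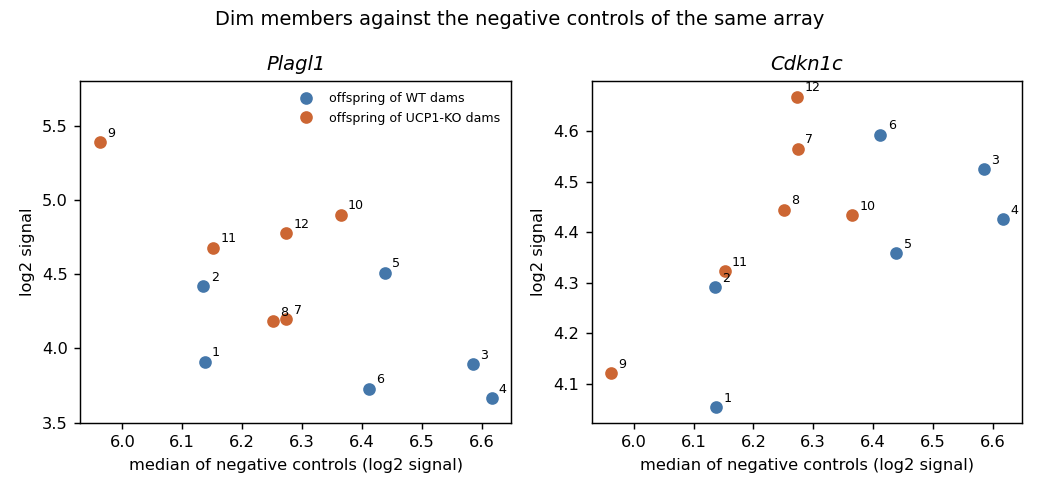
Log2 signal of Plagl1 (left) and Cdkn1c (right) against the median of the negative controls of the same array (x axis, log2 signal), with the array number beside each point. Plagl1 is highest, 5.39, on array 9, where the negative controls are lowest, and Cdkn1c is 4.12 there.

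No pair of members above background passed a test of varying together across the mice. Of the 10 pairs among the 5, the only one with an unadjusted p under 0.05 was Peg3 with Mest, at r = -0.58 (permutation p = 0.0466, adjusted 0.466) and rho = -0.59 (permutation p = 0.0463, adjusted 0.420). Without the 2 arrays farthest from the median of Peg3 its r was -0.32. Grb10 and Igf2r, both of growth factor signalling, had r = -0.45 (permutation p = 0.135, adjusted 0.675) and rho = -0.52 (permutation p = 0.0839, adjusted 0.420). The ligand Igf2 and its receptor Igf2r had r = -0.16 (permutation p = 0.616, adjusted 0.790) and rho = -0.01 (permutation p = 0.991, adjusted 0.991).

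For each member above background the most similar genes over the 12 arrays were looked up among 13159 probe sets with a symbol and a signal above background. Being the highest of so many, these correlations are a description and carry no test. Igf2r was closest to the mitochondrial ribosomal protein genes Mrpl14 (Pearson's r = 0.94) and Mrps23 (0.93). Grb10 was closest to Tie1, a receptor of endothelial cells, and to Meiob, a meiosis gene, both at 0.88. Mest was closest to the transcription factor gene Gtf2ird2 and to the RNA helicase gene Dhx9, both at 0.87. Igf2 was closest to Dcst1 (0.90) and to the keratin-associated gene Krtap5-2 (0.86), and Peg3 to the cilium gene Cfap43 (0.86) and the zinc finger gene Myt1 (0.84). After removal of the group means these values were 0.80 to 0.94.

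Among 63 other imprinted genes, 52 were measured and 33 lay above background by the rule given above. None of the 52 passed in limma over all probe sets (adjusted p of at least 0.178). At an unadjusted p under 0.05 there were 8, or 15.4% against 13.1% of all probe sets, 5 with higher signals in the UCP1-KO-dam group, where 7.08% of all probe sets were, and 3 with lower signals, where 6% were. The median difference was 0.05, and 31 lay above 0 and 21 below. Rasgrf1, a Ras guanine nucleotide exchange factor, read 6.65 ± 0.20 and 7.12 ± 0.25 (SD, n = 6 each), which differed by 0.47 log2 (95% interval 0.17 to 0.77, limma adjusted p = 0.178). Sgce, which encodes epsilon-sarcoglycan, read 7.25 ± 0.51 and 7.86 ± 0.34, a difference of 0.61 (limma adjusted p = 0.234, 95% interval 0.16 to 1.06). Pon2, a paraoxonase, had 0.32 (limma adjusted p = 0.301) and Blcap, a small membrane protein that hosts the imprinted Nnat, -0.43 (limma adjusted p = 0.301). For each of these 4 the groups overlapped.

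**Figure D4:**
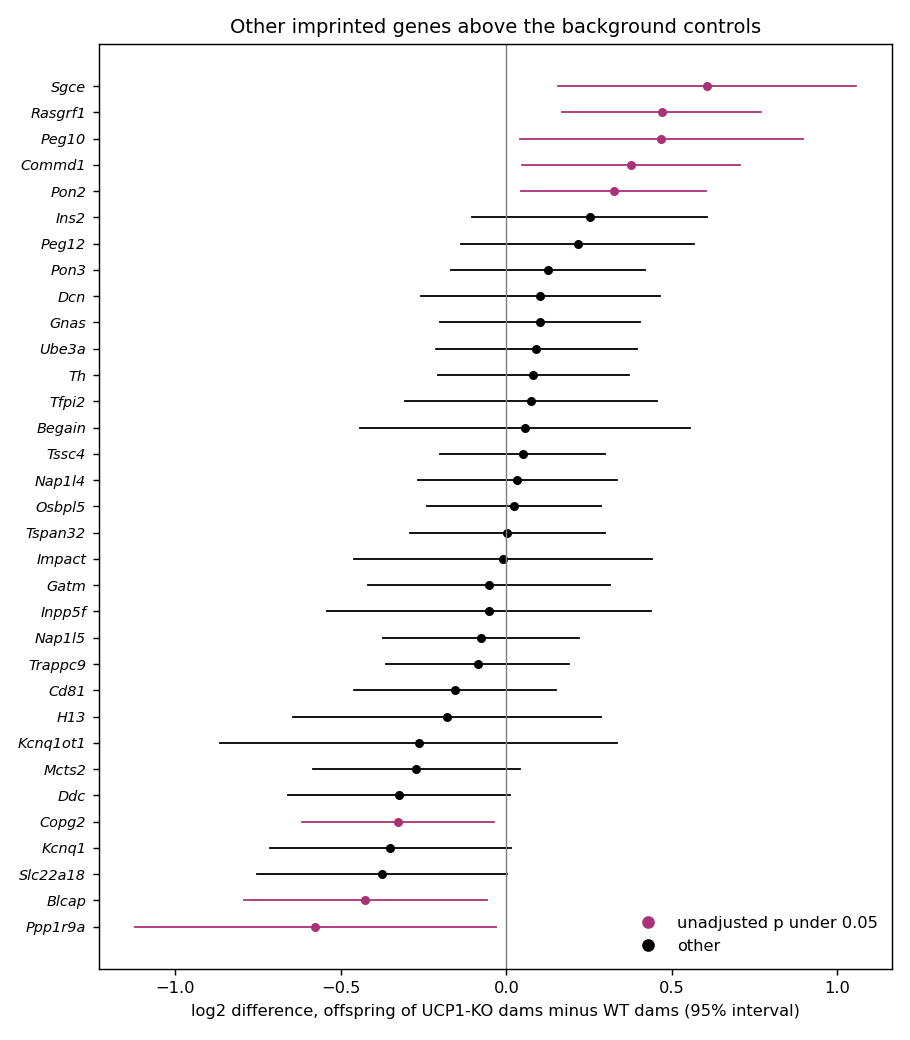
Log2 difference (x axis), UCP1-KO-dam minus WT-dam offspring, with 95% intervals from limma (n = 6 each), for the 33 other imprinted genes above the background controls (y axis, in order of the difference). The 8 genes with an unadjusted p under 0.05 are coloured, 5 above 0 and 3 below, and none passed after adjustment over all probe sets. They are 15.4% of the 52 genes measured, against 13.1% of all probe sets. The share among all probe sets above background is not given here.

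The IGF axis, the ligands, receptors and binding proteins through which Igf2 and Igf2r act, was measured with 19 of 21 genes. Of these 16 were above background. Of the 19, 0 passed and 0 had an unadjusted p under 0.05, against 13.1% of all probe sets (limma adjusted p of at least 0.457, median difference 0.03). Igfals, the acid-labile subunit that holds circulating IGF in complexes, had a difference of -0.35 (95% interval -0.75 to 0.06), the IGF1 receptor gene Igf1r 0.21, the insulin receptor substrate gene Irs1 -0.36 and the binding protein gene Igfbp5 -0.19. The next list, of genes that act on imprints or DNA methylation, held DNA methyltransferases, TET enzymes and zinc finger proteins of control regions, among others. Of the 18 measured 0 passed and 2, or 11.1% against 13.1% of all probe sets, had an unadjusted p under 0.05. These were Tet2, an enzyme that oxidises methylated cytosine, with 10.22 ± 0.59 and 9.52 ± 0.31 (SD, n = 6 each, log2 difference -0.70, limma adjusted p = 0.205), and the methyltransferase gene Dnmt3b with -0.35 (limma adjusted p = 0.322). Mbd3 had 0.17 and Cbx5 0.16.

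Genes that accompany the fetal state and cell division gave like counts. Of 10 measured fetal liver genes and their repressors 0 passed and 5 were above background (5 differences above 0 and 5 below, median -0.01). At an unadjusted p under 0.05 there was 1, or 10% against 13.1% of all probe sets. The 1 was Cd24a, a surface protein of immature cells, with 0.37 (limma adjusted p = 0.361), which was not above background in the WT-dam group and was named after its value was seen. Of the 5 above background, the 4 of smallest p had differences below 0 and the other, Zfhx3, had 0.05. Afp, the fetal serum protein alpha-fetoprotein, had -0.16, Hmga2 -0.15, Igf2bp3 -0.12 and Zhx2, a repressor of Afp and H19 after birth, -0.29 (limma adjusted p = 0.485). Of 18 measured cell cycle genes 0 passed, 9 lay above 0 and 9 below. At an unadjusted p under 0.05 were 2, or 11.1% against 13.1% of all probe sets. Pcna, the DNA polymerase clamp, had 0.31 (limma adjusted p = 0.354), Cdkn1a, the inhibitor p21, -0.80 (limma adjusted p = 0.378), Cdk6 -0.38 and Cdkn2c 0.38.

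The tissue matched its label. All 10 measured hepatocyte markers lay above background, with an array mean of 17.8 to 18.0 in WT-dam offspring and 17.9 to 18.1 in UCP1-KO-dam offspring. Above background were also 10 of 10 endothelial, 10 of 10 Kupffer cell, 11 of 11 stellate cell and fibroblast, 2 of 5 cholangiocyte, 7 of 9 lymphocyte and neutrophil, 2 of 2 erythroid, 3 of 7 pancreatic and 4 of 7 muscle markers, and 0 of 6 adipocyte markers. Of the 77 markers measured in these 10 lists 0 passed and 8 had an unadjusted p under 0.05, or 10.4% against 13.1% of all probe sets (limma adjusted p of at least 0.175). Array means of the lists overlapped between the groups, and the median difference of a list was largest for the 2 erythroid markers, at 0.29. Of the markers of sinusoidal endothelium, Stab2 had -0.74 (limma adjusted p = 0.175) and Lyve1 0.94 (limma adjusted p = 0.191), with opposite signs.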

How the data were processed

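Liver RNA of 12 mice was measured on 1 array each. The deposited values are log2 signals per probe set, which per the submitters' processing notes were made by the authors with the Transcriptome Analysis Console and RMA. Their versions and the genome build are not given in the sources used here. RMA normalizes the arrays to each other, which reduces a shift of most genes, and compresses differences near background. The number of arrays limits the precision. The 6640 control rows were left out and the other 22206 probe sets were fitted in R 4.3.3 with lmFit and eBayes of limma 3.58.1 (two-sided), with the genotype of the dam as the only term. Benjamini-Hochberg adjustment ran over all of them, with a threshold of 0.05. The exact permutation test used all 924 labellings of the arrays, with 0.00216 as its smallest p. Correlations used 100000 permutations. The fit was tested on simulated data. Of the probe sets, 19572 had 1 symbol. The other 2634 had no symbol or several and were not matched to genes. Symbols come from the platform annotation, and promoter windows from RefSeq, matched by symbol. The text names the members, of each list of other genes of the pathway up to 4 of smallest p among those above background, and for each member above background the 2 genes of highest r. Genes named outside this rule are marked so in the text. Marker lists are given as counts, with the 2 endothelial genes of smallest p. The members and lists were chosen with earlier results of these data known. Alternatives were quantile normalization, centring, filters on dim probe sets, averaging per symbol and a variance trend together with robust estimation. Others were the negative control median as a covariate, other background levels and leaving out arrays.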

Additional observations from a re-analysis of the deposited data

Results flagged for a closer look

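In 2 of the 16 combinations of a member and a group, 1 mouse lay apart from the other 5. The test of the gap (Dixon, 95% level) gives such a result in about 1 of 20 groups by chance. Peg3 was 4.74 on UCP1-KO-dam array 12, where the next value of the group was 5.46. Grb10 was 6.63 on WT-dam array 6, where the next value was 6.22.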

How the results depend on the processing

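No member passed under any of the 21 alternatives in which it was measured; the filters on dim probe sets left 4 and 6 members. Plagl1 kept a positive difference of 0.48 to 0.77 (limma adjusted p = 0.115 to 0.754), Igf2 0.14 to 0.25, Mest 0.17 to 0.39 and Dlk1 a negative one of -0.34 to -0.15. Signs turned for 4 members. Cdkn1c was -0.02 after quantile normalization and -0.01 to 0.11 when single arrays were left out. Grb10 was -0.02 after quantile normalization, after centring and without UCP1-KO-dam arrays 8, 10 and 11, an alternative added after seeing the data, and -0.04 to 0.09 without single arrays. Igf2r was -0.03 without WT-dam arrays 3 to 6, -0.02 with the covariate and -0.03 to 0.18 without single arrays. Peg3 was -0.28 to 0.04 without single arrays. The number of members above background, 5, was 4 by the median of the background controls, 3 by the negative control median, 2 by the highest background control and 1 by the 95th percentile of the negative controls. The number of all probe sets called, 8 (1 higher), was 32 without the dimmer 50% (6 higher). It was 22 with a variance trend and robust estimation together, 12 after quantile normalization (3 higher) and 2 with the covariate. It was 0 both without WT-dam arrays 3 to 6 and without UCP1-KO-dam arrays 8, 10 and 11. Without single arrays it was 1 to 112: 112 without WT-dam array 2, 54 without array 7, 5 without array 11, 4 without array 9, 3 without array 3, 2 without array 6 and 1 without array 8. The cause was not tested. No paired analysis was run, because the labels name no pairing, litter or batch. The arrays are numbered 1 to 12 across the groups and share no number, which does not show whether a pairing existed.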

Other observations

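In the imprinted cluster of chromosome 6 that holds Sgce and Peg10, differences had both signs. These genes were singled out after their values were seen, and none passed the test. Sgce and Peg10, neighbours with 0 protein-coding genes between them and both mainly expressed from the father's copy, had 0.61 and 0.47 log2 (limma adjusted p = 0.234 and 0.331). Ppp1r9a, with 1 protein-coding gene between it and Peg10, had -0.58 (limma adjusted p = 0.354). Of the other listed imprinted genes of this cluster, Pon2 had 0.32, Pon3 0.13 and Tfpi2 0.07, all above background. Asb4 had 0.20, Calcr -0.12 and Dlx5 -0.13, none above background in both groups. Among these cluster genes above background, Ppp1r9a alone had a negative difference. Sgce read 6.54 to 7.93 in WT-dam offspring and 7.53 to 8.41 in UCP1-KO-dam offspring, Peg10 5.55 to 6.64 and 5.87 to 7.01, and Ppp1r9a 8.18 to 9.15 and 7.33 to 8.98, so the groups overlapped for all 3. Copg2, the neighbour of Mest on chromosome 6 and also singled out after its value was seen, had -0.33 (limma adjusted p = 0.318), with 11.18 to 11.58 and 10.76 to 11.39, while Mest had 0.25. Whether these pairs differ from each other was not tested.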
